A study of Mus musculus with 6 samples.

Results

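Protein folding in the endoplasmic reticulum (ER) and the unfolded protein response were followed through 10 genes of the embryonic mouse heart, out of the 13843 genes in the deposited expression table. They were taken by symbol: the ER oxidase Ero1l, the chaperones Hspa5, Hsp90b1 and Calr, the disulfide isomerases Pdia4 and Pdia6, and the stress factors Xbp1, Atf4, Ddit3 and Herpud1. All 10 were found in the table, and each had reads in all 6 libraries, from 82 reads for Ddit3 to 17168 for Hsp90b1. The question here was how Ero1l, a gene driven by hypoxia-inducible factors (HIF), behaved beside the chaperones and the stress factors when Vhl was deleted in the heart.

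The libraries held polyadenylated RNA from the ventricles of single E12.5 mouse embryos of C57BL/6 background, with atria and valve tissue cut away. Embryos labelled knockout had the genotype Vhl(flox/flox) / Nkx2.5(Cre/+), and control embryos had Vhl(flox/flox) / Nkx2.5(+/+), so both groups carried floxed Vhl. Knockouts 1 and 2 came from litters 1 and 2, controls 1, 2 and 3 from litters 1, 2 and 3, and the library labelled knockout 3 from litter 4. The Nkx2-5 locus drives Cre in heart progenitors and their muscle descendants, and the Cre allele replaces a copy of Nkx2-5; embryos with Cre but unfloxed Vhl were not analysed here, so loss of Vhl and the Cre allele cannot be told apart. Other cells of the ventricle may keep Vhl, and all cells were sequenced together.

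The targeted gene was read first. Vhl, which encodes the protein that sends HIF to degradation, had normalized signals of 11.1 and 10.3 in knockouts 1 and 2, against 33.7, 36.3 and 38.6 in controls 1 to 3. The library labelled knockout 3 had 34.5, inside the range of the controls, which goes against its label. Nkx2-5 had 51.6 and 66.7 in knockouts 1 and 2, against 68.6 to 79.2 in the controls, and 80.3 for the library labelled knockout 3. Its split was narrow: it did not pass over the 5 libraries (log2 -0.34, limma adjusted p = 0.19) and passed between littermates (limma adjusted p = 0.0294). Of all genes, 17.0% lay below all 3 controls in both knockouts, so Nkx2-5 is a weak check of the labels. The comparisons below therefore set knockouts 1 and 2 against the 3 controls, show the library labelled knockout 3 apart, and give the result with all 6 libraries as labelled at the end. Because that library was set aside for its Vhl value, differences of genes that follow Vhl are partly built into the choice. The libraries held 9067805 to 12592902 reads over the table's genes, and the signal is reads per gene divided by a factor per library, so that each library sums to between 987131 and 1017772. Of the listed cardiomyocyte markers, 6 of 6 were measured, and the lowest, Tnni1, had at least 1011 in every library.

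In the ER, secreted and membrane proteins fold with the help of chaperones such as BiP, which Hspa5 encodes, and gain disulfide bonds through isomerases that the oxidase Ero1 recharges, passing electrons to oxygen. When unfolded proteins build up, the sensors IRE1, PERK and ATF6 raise chaperone genes through XBP1 and ATF6 and stress genes through ATF4 and its target CHOP, which Ddit3 encodes. HIF induces Ero1l in hypoxic mammalian cells by a separate route, and Vhl, by marking HIF for degradation, keeps that route down when oxygen is present.

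The promoters were searched for motifs of both routes, and those of Ero1l and Hspa5 are printed because the results below compare these genes. Sequences are from RefSeq on GRCm38.p6, 250 bases before the RefSeq start site, read 5′ to 3′ on the strand of the gene, in lower case with motif matches in capitals. The motifs searched were the HIF core, as ACGTG or GCGTG, the ER stress response element, as CCAAT, 9 further bases and CCACG, and the C/EBP-ATF element TTGCATCA, each on both strands of windows of 250 bases before to 50 after the start. RefSeq lists Ero1l as Ero1a, and 10 of 10 genes were matched. The RefSeq starts of both printed genes lie inside the gene intervals given with their values below, which come from another annotation. The HIF cores marked for Ero1l and the ER stress response element marked for Hspa5 also lie inside those intervals. On that annotation they come after the gene start.
Ero1l, chr14:45318573-45318822, minus strand: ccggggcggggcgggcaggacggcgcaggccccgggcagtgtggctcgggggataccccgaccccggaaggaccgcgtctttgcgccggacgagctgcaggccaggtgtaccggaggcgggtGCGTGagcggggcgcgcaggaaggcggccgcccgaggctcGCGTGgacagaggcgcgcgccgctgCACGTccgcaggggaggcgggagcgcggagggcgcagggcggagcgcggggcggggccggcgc
Hspa5, chr2:34771840-34772089, plus strand: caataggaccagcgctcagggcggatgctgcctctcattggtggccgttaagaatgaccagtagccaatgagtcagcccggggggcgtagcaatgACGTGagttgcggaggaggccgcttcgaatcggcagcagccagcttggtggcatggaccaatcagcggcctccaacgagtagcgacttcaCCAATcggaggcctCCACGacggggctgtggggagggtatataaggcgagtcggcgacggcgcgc
In the Ero1l window the capitals mark GCGTG at 128 and 88 bases before the start and CACGT, the other strand of ACGTG, at 63 bases before it, with no ER stress response element. In the Hspa5 window they mark ACGTG at 155 bases before the start and a whole ER stress response element at 65 bases before it.

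The ER stress response element was found in 4 of the 10 promoters, and its 5 copies are shown because the Ero1l window holds none. Each is written on its own strand, with the fixed ends in capitals and the free bases between them in lower case.
Hspa5, 65 bases before the start: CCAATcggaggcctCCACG
Hsp90b1, 212 bases before the start: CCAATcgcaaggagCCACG
Hsp90b1, 107 bases before the start, other strand: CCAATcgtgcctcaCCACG
Calr, 162 bases before the start, other strand: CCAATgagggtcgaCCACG
Pdia6, 98 bases before the start: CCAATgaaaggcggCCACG
Among all 32851 RefSeq promoters of the same length, 39 (0.119%) held this element. A HIF core of either form was in 8 of the 10 promoters, against 43.8% of all promoters (19.6% for ACGTG and 32.4% for GCGTG), so these short letters are common. Calr, Pdia6, Atf4 and Ddit3 each had 3 matches in their windows, as many as Ero1l, so their number did not set Ero1l apart. In Calr, 2 of the matches are a single palindrome, CACGTG, read on both strands. In Hsp90b1 and Calr the GCGTG matches overlap the CCACG end of the element. The C/EBP-ATF element was in the Herpud1 promoter, 112 bases before the start, and in 294 of all promoters (0.895%). Pdia4 and Xbp1 held none of the motifs in these windows. A match describes letters, and binding was not measured.

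**Figure D1:**
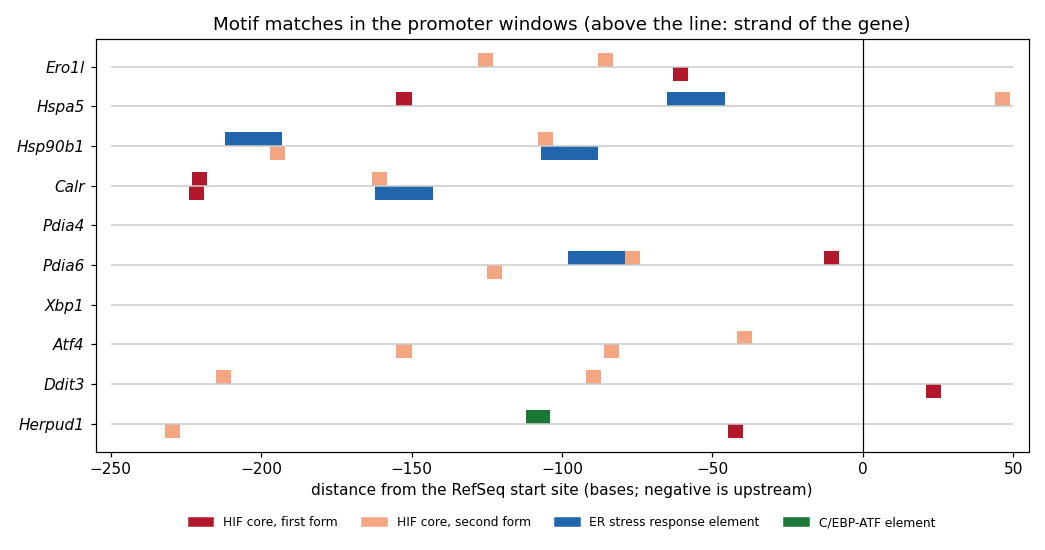
Motif matches in the 10 promoter windows, plotted by distance from the RefSeq start site in bases (horizontal axis, negative before the start), with matches on the strand of the gene above each line and those on the other strand below it. Blue boxes are the 5 ER stress response elements in Hspa5, Hsp90b1, Calr and Pdia6, red and orange boxes are HIF cores ACGTG and GCGTG, and the green box is the C/EBP-ATF element of Herpud1.

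Ero1l (ENSMUSG00000021831, chromosome 14, 45283087 to 45318771, GRCm38) rose in the knockouts. Its normalized signal was 237.6 in knockout 1 and 214.7 in knockout 2, against 104.8, 107.5 and 104.9 in controls 1 to 3, and 107.8 in the library labelled knockout 3. Both knockouts stood far above the controls, which differed little from each other, and the library labelled knockout 3 sat with them. The mean was 226 ± 16.2 in knockouts (SD, n = 2) and 106 ± 1.51 in controls (SD, n = 3), a ratio of 2.14. The log2 fold change was 1.09 ± 0.07 (SE; 95% interval 0.92 to 1.25; limma adjusted p = 0.000253), which placed Ero1l at rank 144 of 13843 genes ordered by fold change. Within litter 1 the knockout exceeded its littermate by 1.17 on the log2 scale, and within litter 2 by 0.99. The call held with edgeR (adjusted p = 0.000321) and with any 1 of the 5 libraries left out (adjusted p 0.00125 to 0.00548). It was the sole member past the threshold in limma's test of knockouts 1 and 2, 1 of 10, where 3.01% of all genes were called higher and 1.24% lower.

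The 3 chaperones of the ER lumen did not pass limma's threshold. Hspa5 (ENSMUSG00000026864, chromosome 2, 34771970 to 34777547), the gene of BiP and the usual marker of an active unfolded protein response, had 1034 and 905.7 in knockouts 1 and 2, against 934.9, 830.4 and 825.2 in controls 1 to 3, and 756 in the library labelled knockout 3. The groups overlapped, since control 1 exceeded knockout 2. Its log2 fold change was 0.17 ± 0.10 (SE; 95% interval -0.06 to 0.40; limma adjusted p = 0.45), so an increase of 0.40 lies at the edge of what these libraries allow and an increase like that of Ero1l lies outside it. The value was 0.071 without knockout 1 and 0.26 without knockout 2.

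Hsp90b1 (ENSMUSG00000020048, chromosome 10, 86690209 to 86705509) encodes GRP94, the ER member of the HSP90 family. It had 1388 and 1253 in knockouts 1 and 2, against 1004, 1009 and 1157 in controls 1 to 3, and 948 in the library labelled knockout 3. Both knockouts lay above every control. The log2 fold change was 0.32 ± 0.10 (SE; 95% interval 0.09 to 0.56) and did not pass (limma adjusted p = 0.146). It passed in the fit of littermates alone, which takes litters 1 and 2 and blocks by litter (log2 0.39, limma adjusted p = 0.0445), and with DESeq2 on recovered reads (adjusted p = 0.0103). Of the 3 transcripts annotated over the same interval that could share reads with it, 1810014B01Rik and Gm15344 were in the table.

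Calr (ENSMUSG00000003814, chromosome 8, 84841850 to 84846934) encodes calreticulin, a calcium-binding chaperone of glycoproteins that the embryonic heart needs. It had 990 and 889 in knockouts 1 and 2, against 754, 791 and 812 in controls 1 to 3, and 687 in the library labelled knockout 3. The knockouts again lay above all controls, and the library labelled knockout 3 lay below them. The log2 fold change was 0.26 ± 0.09 (SE; 95% interval 0.06 to 0.46; limma adjusted p = 0.168), and DESeq2 called it (adjusted p = 0.0176). The annotation names a pseudogene, Calr-ps, that could share reads.

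The disulfide isomerases, which Ero1 keeps oxidized directly or through other isomerases, had fold changes about as large as that of Hsp90b1. Pdia4 (ENSMUSG00000025823, chromosome 6, 47796141 to 47813430) had 309 and 260 in knockouts 1 and 2, against 221, 222 and 231 in controls 1 to 3, and 212 in the library labelled knockout 3. Both knockouts exceeded the controls, knockout 1 by more than knockout 2. Its log2 fold change was 0.33 ± 0.09 (SE; 95% interval 0.13 to 0.53; limma adjusted p = 0.0827). It passed between littermates (log2 0.36, limma adjusted p = 0.0302) and with DESeq2 (adjusted p = 0.0104). With single libraries left out, the limma value was log2 0.46 without knockout 2 (adjusted p = 0.0444), 0.21 without knockout 1 (adjusted p = 0.308) and 0.32 to 0.36 with a control left out (adjusted p 0.153 to 0.246). Pdia6 (ENSMUSG00000020571, chromosome 12, 17266545 to 17284770) had 470 and 429 in knockouts 1 and 2, against 366, 373 and 383 in controls 1 to 3, and 323 in the library labelled knockout 3. The groups did not overlap. Its log2 fold change was 0.26 ± 0.07 (SE; 95% interval 0.09 to 0.43; limma adjusted p = 0.101), and DESeq2 called it (adjusted p = 0.00931).

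Read as a group, the 3 chaperones and 2 isomerases had a summed signal of 4191 and 3738 in knockouts 1 and 2, against 3280, 3226 and 3408 in controls 1 to 3, and 2926 in the library labelled knockout 3. Knockout 1 was higher than knockout 2 for each of the 5 genes, and the library labelled knockout 3 was below all 3 controls for each of them, a place that 21.7% of all genes held. None of the 5 passed limma's threshold in knockouts 1 and 2, and DESeq2 called 4 of them, all but Hspa5. With Ero1l, DESeq2 called 5 of the 10 members higher, where it called 4.02% of all genes higher, and edgeR called Ero1l alone, where it called 2.94% of all genes higher. The littermate fit called 3 members higher, Ero1l, Hsp90b1 and Pdia4, beside 4.92% of all genes higher and 3.21% lower. That fit uses the same knockouts and has 1 residual degree of freedom, so it is no independent support.

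The 4 stress factors did not pass limma's threshold either. Xbp1 (ENSMUSG00000020484, chromosome 11, 5520659 to 5525893) encodes the transcription factor made active when IRE1 splices its mRNA, a step that a signal per gene does not show. It had 101.8 and 87.4 in knockouts 1 and 2, against 83.0, 78.2 and 61.7 in controls 1 to 3, and 67.5 in the library labelled knockout 3. The knockouts lay above the controls, which were themselves spread widely. The log2 fold change was 0.35 ± 0.13 (SE; 95% interval 0.04 to 0.66; limma adjusted p = 0.222). Without control 3, the lowest library, it was 0.22 (limma adjusted p = 0.351), which is also its value between littermates (0.156).

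Atf4 (ENSMUSG00000042406, chromosome 15, 80255184 to 80257541), the effector of the PERK arm, is controlled to a large part through translation, which RNA does not show. It had 111.7 and 118.4 in knockouts 1 and 2, against 100.7, 106.1 and 97.3 in controls 1 to 3, and 103.8 in the library labelled knockout 3. The groups did not overlap but lay close together, with a log2 fold change of 0.18 ± 0.07 (SE; 95% interval 0.01 to 0.35; limma adjusted p = 0.248).

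Ddit3 (ENSMUSG00000025408, chromosome 10, 127290774 to 127296288), the gene of the pro-apoptotic factor CHOP, had 9.38 and 10.9 in knockouts 1 and 2, against 9.10, 10.7 and 11.4 in controls 1 to 3, and 10.1 in the library labelled knockout 3. The 6 libraries were interleaved, and the log2 fold change was -0.04 ± 0.15 (SE; 95% interval -0.39 to 0.32; limma adjusted p = 0.93), from 82 to 128 reads per library. Ddit3 overlaps Mars on the other strand, and the labels do not state strand-specific counting.

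Herpud1 (ENSMUSG00000031770, chromosome 8, 94386438 to 94395377), an ER membrane protein gene of the degradation pathway that the unfolded protein response induces, had 36.2 and 29.5 in knockouts 1 and 2, against 38.3, 35.7 and 32.7 in controls 1 to 3, and 36.0 in the library labelled knockout 3. Knockout 2 was the lowest library and knockout 1 lay within the controls. The log2 fold change was -0.11 ± 0.12 (SE; 95% interval -0.39 to 0.16; limma adjusted p = 0.68). The summed signal of the 4 stress factors was 259 and 246 in knockouts 1 and 2, against 231, 231 and 203 in controls 1 to 3, and 217 in the library labelled knockout 3.

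**Figure D2:**
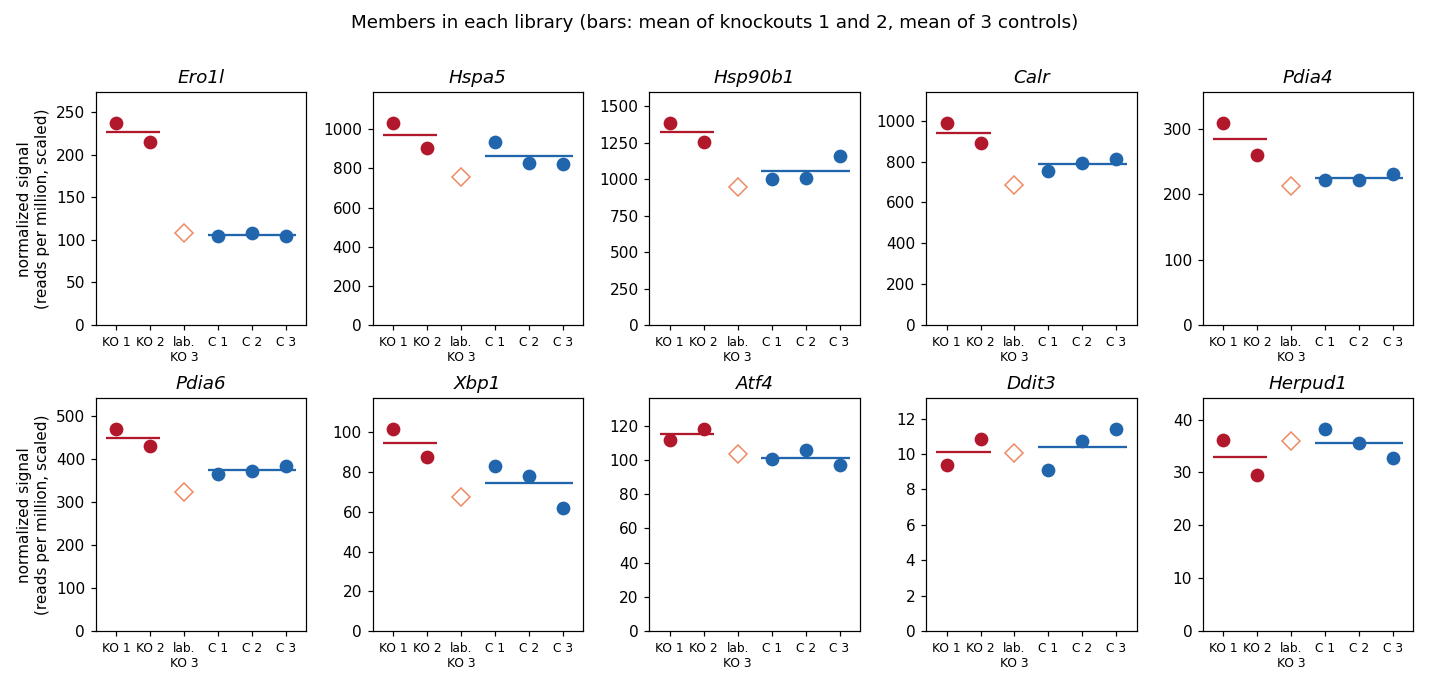
Normalized signal (vertical axis, reads scaled by library, starting at 0) of the 10 members in each library, with knockouts 1 and 2 as red points, the library labelled knockout 3 as an open diamond and controls 1 to 3 as blue points. Bars are the means of knockouts 1 and 2 and of the 3 controls. Ero1l separates widely (238 and 215 against 105 to 107), the chaperones and isomerases separate narrowly or, for Hspa5, overlap, and Ddit3 and Herpud1 overlap.

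Over the 10 members, both knockouts lay above all 3 controls for 7 genes and below them for 0, where 18.1% of all genes lay above and 17.0% below. The 3 without that order were Hspa5, Ddit3 and Herpud1. The median log2 fold change of the members was 0.26, with 8 of 10 above 0, against a median of -0.01 and 48.2% above 0 over all genes. At an unadjusted p under 0.05, 7 members passed in limma, Ero1l, Hsp90b1, Calr, Pdia4, Pdia6, Xbp1 and Atf4, where 17.8% of all genes did in either direction. That count was 4 without knockout 1, 5 without control 2 or control 3, and 6 without knockout 2 or control 1. These counts describe a list chosen with results known, and the members share regulators, so they are not 10 separate tests.

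Ero1l stood apart from every other member. Its 95% interval began at 0.92, above the upper end of the interval of each of the other 9, of which that of Xbp1 reached highest, 0.66. The log2 ratio of Ero1l to each of the other 9 members was higher in both knockouts than in all 3 controls, in 9 of 9 pairs, by 0.74 for Xbp1 to 1.202 for Herpud1. Against Hspa5 the log2 ratio was -2.12 and -2.07 in knockouts 1 and 2, against -3.14, -2.94 and -2.96 in controls 1 to 3, and -2.80 in the library labelled knockout 3, a difference of 0.92. The knockouts were about alike in this ratio although knockout 1 had more of both transcripts. For each pair the exact one-sided permutation test over the 5 libraries gave p = 0.1, the smallest that 2 libraries against 3 allow, so no ratio could reach 0.05. All 9 ratios share the same Ero1l values.

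**Figure D3:**
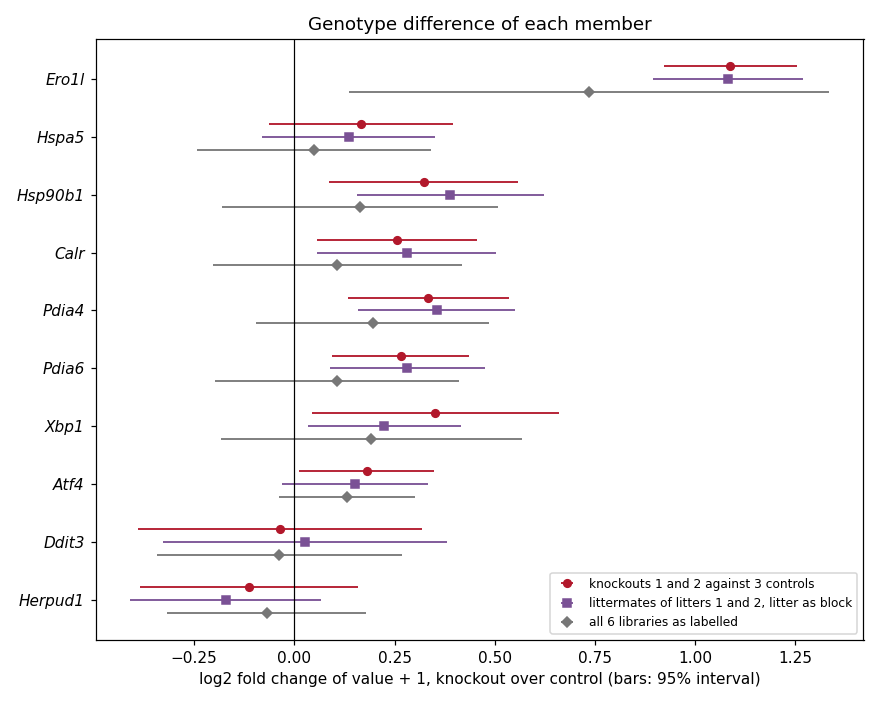
Log2 fold change of value + 1, knockout over control (horizontal axis), for the 10 members, with 95% intervals as bars. Red points are knockouts 1 and 2 against 3 controls, purple squares are the littermates, blocked by litter, and grey diamonds are all 6 libraries as labelled. Ero1l lies near 1.09 with knockouts 1 and 2, and on that comparison the others lie between -0.11 and 0.35.

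To compare genes, signals were divided by kilobases of exon, with all annotated exons of a gene joined. The transcripts expressed may be shorter, so the order of genes on this scale depends on the annotation. Per kilobase, Calr and Hsp90b1 were the most abundant members in controls, with means of 273 and 262 and ranges that overlapped. They were followed in controls by Hspa5 with 204, Pdia6 with 99.9, Pdia4 with 93.7, Atf4 with 43.0, Xbp1 with 22.9, Ero1l with 20.0, Herpud1 with 15.2 and Ddit3 with 6.08. Among neighbours in this order the control ranges of Calr and Hsp90b1 overlapped, as did those of Xbp1 and Ero1l. In knockouts 1 and 2 Ero1l reached 44.96 and 40.6 per kilobase, above Xbp1 with 31.3 and 26.9 and near Atf4 with 47.4 and 50.2. The oxidase transcript was thus below the Pdia6 transcript in every library on this scale.

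The other genes of the ER folding machinery were taken from lists by role. Of 24 measured genes of oxidative folding, which includes Ero1l, Pdia4 and Pdia6, 4 rose, 0 fell and 20 did not pass in limma (16.7% higher, against 3.01% of all genes), with a median log2 fold change of 0.22 and 20 above 0. Besides Ero1l these were P4hb, Prdx4 and Gpx8. P4hb encodes protein disulfide isomerase, which is also a subunit of the collagen prolyl hydroxylases, and had 798 and 690 in knockouts 1 and 2, against 417, 437 and 454 in controls 1 to 3, and 389 in the library labelled knockout 3 (log2 0.77 ± 0.09, SE; limma adjusted p = 0.00337). Its call held with each library left out in turn. Prdx4, the ER peroxiredoxin that uses the peroxide Ero1 makes, had 172 and 141 in knockouts 1 and 2, against 104, 94.6 and 96.6 in controls 1 to 3, and 107 in the library labelled knockout 3 (log2 0.66 ± 0.10, SE; limma adjusted p = 0.00994; 0.058 without knockout 1 and 0.055 without control 2). Gpx8, an ER peroxidase, had 70.1 and 67.1 in knockouts 1 and 2, against 51.1, 51.9 and 54.4 in controls 1 to 3, and 47.8 in the library labelled knockout 3 (log2 0.38 ± 0.08, SE; limma adjusted p = 0.0342). The Gpx8 call was lost whichever library was left out (0.0689 to 0.17). The littermate fit called 8 of the 24 higher (4.92% of all genes) and DESeq2 9 (4.02%). In limma, 3 passed without control 1 or control 3 and 2 without control 2. In those fits 297, 259 and 219 of all 13843 genes were higher. The median log2 fold change of the list was 0.16 without knockout 1 and 0.28 without knockout 2.

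Ero1lb, the other ER oxidase gene of the mouse and a target of the unfolded protein response in the pancreas, is given here after its values were seen. It had 12.04 and 9.03 in knockouts 1 and 2, against 11.3, 7.80 and 13.6 in controls 1 to 3, and 9.71 in the library labelled knockout 3. The groups overlapped (log2 -0.03 ± 0.23, SE; 95% interval -0.57 to 0.51; limma adjusted p = 0.97).

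Of 25 ER chaperones and cochaperones, 0 passed in limma and 0 in edgeR, while 11 had an unadjusted p under 0.05 in limma (17.8% of all genes). That count of 11 in limma was 4 without knockout 1, 6 without control 2 and 7 without control 3. DESeq2 called 4 of the 25 higher (4.02% of all genes) and the littermate fit 1 (4.92%). The median log2 fold change was 0.18, with 24 of 25 above 0, and both knockouts lay above all controls for 15 (18.1% of all genes). The smallest p-values belonged to Sdf2l1, a cofactor of BiP, and to Creld1, an ER protein gene needed in heart development. Sdf2l1 had 19.0 and 19.7 in knockouts 1 and 2, against 14.6, 14.0 and 14.1 in controls 1 to 3, and 12.6 in the library labelled knockout 3 (log2 0.42, limma adjusted p = 0.0887). Creld1 had 52.0 and 51.7 in knockouts 1 and 2, against 41.2, 41.9 and 32.9 in controls 1 to 3, and 34.4 in the library labelled knockout 3 (log2 0.42, limma adjusted p = 0.0997).

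Genes that bring proteins into the ER and attach glycans come before folding. Of 24 measured, 1 rose (3.01% of all genes) and 0 fell in limma, with a median log2 fold change of 0.24 and 23 above 0, and 15 had an unadjusted p under 0.05 (17.8% of all genes). The littermate fit called 4 higher (4.92% of all genes) and DESeq2 6 (4.02%). Without knockout 1 the median was 0.12 and 5 had an unadjusted p under 0.05, and without control 2 that count was 10. The gene that passed was Rpn2, a subunit of the oligosaccharyltransferase, with 298 and 278 in knockouts 1 and 2, against 213, 221 and 217 in controls 1 to 3, and 216 in the library labelled knockout 3 (log2 0.41 ± 0.07, SE; limma adjusted p = 0.0176). The Rpn2 call was lost without knockout 1, control 2 or control 3. Of the list, 0 genes passed without control 2 or control 3, where 219 and 259 of all 13843 genes were higher. Without control 1, 1 passed (297 of all genes). The median was 0.35 without knockout 2.

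Genes of quality control and ER-associated degradation, which refold or remove faulty proteins, had smaller fold changes. Of 28 measured, 0 passed in limma, in edgeR, in DESeq2 or between littermates, and 2 had an unadjusted p under 0.05 in limma (17.8% of all genes). The median log2 fold change was 0.07, with 19 above 0, and it was 0.047 without knockout 1 and 0.040 without control 3. The smallest p-values belonged to Edem1, which takes misfolded glycoproteins to degradation (log2 0.25, limma adjusted p = 0.194), and Mogs, a glucosidase (log2 0.30, limma adjusted p = 0.211). Derl3 was not in the table.

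Of 14 genes of the sensors and their processing, 0 passed in limma, edgeR, DESeq2 or between littermates. In limma 4 had an unadjusted p under 0.05 (17.8% of all genes). Their median log2 fold change was 0.10, with 8 above 0, but it was 0.0084 without knockout 1 and 0.043 without control 3, where 1 and 0 of the 14 had an unadjusted p under 0.05. That count was 2 without control 1 or control 2. Besides Xbp1, the smallest p belonged to Creb3, a membrane-bound transcription factor (log2 0.28, limma adjusted p = 0.208).

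The targets of ATF4 and the other genes of the integrated stress response lay on both sides of 0. Of 34 measured, 3 rose (8.82%, against 3.01% of all genes) and 0 fell in limma (1.24% of all genes), and the littermate fit called 3 higher and 1 lower, the serine synthesis gene Phgdh (4.92% and 3.21% of all genes). The median log2 fold change was -0.02 with 16 above 0, and it ranged from -0.03 to 0.04 with 1 library left out. Those that rose were Shmt2, a mitochondrial serine enzyme, Vldlr, a lipoprotein receptor, and Sars, a transfer RNA synthetase. Shmt2 had 123 and 139 in knockouts 1 and 2, against 63.0, 67.7 and 58.4 in controls 1 to 3, and 61.8 in the library labelled knockout 3 (log2 1.04 ± 0.09, SE; limma adjusted p = 0.0009). Vldlr had 294 and 233 in knockouts 1 and 2, against 139, 126 and 95.6 in controls 1 to 3, and 141 in the library labelled knockout 3 (log2 1.13 ± 0.16, SE; limma adjusted p = 0.00962; 0.0862 without knockout 1). It is also known as a HIF target. Sars had 112 and 104 in knockouts 1 and 2, against 79.8, 83.7 and 85.2 in controls 1 to 3, and 82.8 in the library labelled knockout 3 (log2 0.38 ± 0.07, SE; limma adjusted p = 0.0331), a call lost whichever library was left out. Without control 1, 2 or 3, 2 genes of the list were called higher, where 297, 219 and 259 of all 13843 genes were. Chac1, Nupr1, Slc7a11, Gdf15 and Fgf21 were not in the table.

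The HIF target list shows the company of Ero1l. Of 20 measured, 19 rose and 0 fell in limma, where 3.01% of all genes rose and 1.24% fell. Kdm3a, a histone demethylase gene, did not pass (log2 0.16, limma adjusted p = 0.34). The list had a median log2 fold change of 1.27. The smallest p-values were those of P4ha2 (2.17), Egln1 (1.49), Slc16a3 (1.68), Bnip3 (1.98), Pfkl (1.13) and Ero1l (1.09), each value a log2 fold change. The change in Ero1l was thus below the median of this list and above every other gene of oxidative folding.

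**Figure D4:**
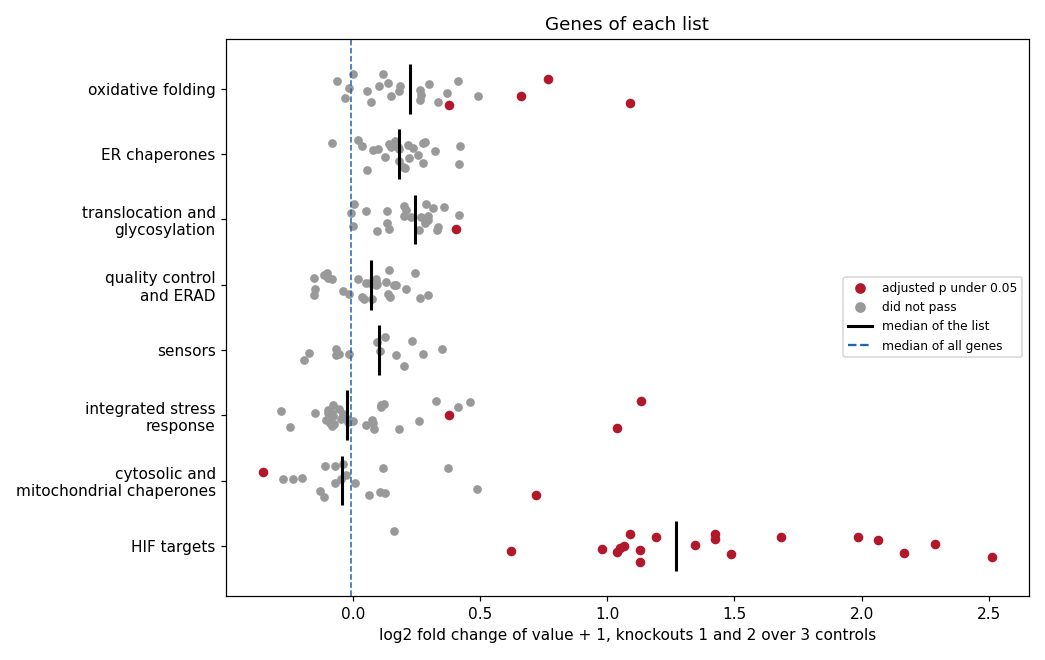
Log2 fold change of value + 1, knockouts 1 and 2 over 3 controls (horizontal axis), of each measured gene in 8 lists. Red points passed limma's adjusted p of 0.05, grey points did not, black bars are the list medians (1.27 for HIF targets, 0.24 or less for the others) and the dashed line is the median of all genes, -0.01.

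The profile of a gene over the 6 libraries shows which genes it resembled. Likeness was measured as the root mean square distance between log2 profiles centred on their means, over 9916 genes with a mean of at least 10. The genes nearest to Ero1l were Pfkp (0.033), Mif (0.047), Jmjd6 (0.050), Pkm (0.052) and Plekha2 (0.052), while the nearest other member, Pdia4, was at rank 495 and the farthest, Herpud1, at rank 7131. Those nearest to Hspa5 were Sft2d1 (0.023), Ube2j1 (0.031), Spon1 (0.031), Galnt1 (0.033) and Snrpf (0.034). From Hspa5, Pdia6 was at rank 332, Calr at 493, Pdia4 at 707, Xbp1 at 1496, Hsp90b1 at 1661 and Atf4 at 1763. Herpud1 was farther, at 4584, then Ddit3 at 7093 and Ero1l at 9576. With 6 libraries these distances describe the data and carry no test.

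Some genes listed as markers of other cell types moved with the ER genes. Which cells of the ventricle expressed them was not measured. In limma 3.01% of all genes rose and 1.24% fell. Because whole ventricles were sequenced, fewer cells of a type and less RNA per cell cannot be told apart. The summed signal of 25 ER chaperone genes was 6811 and 6094 in knockouts 1 and 2, against 5500, 5440 and 5558 in controls 1 to 3, and 5051 in the library labelled knockout 3. Smooth muscle markers summed to 2448 and 2435 in knockouts 1 and 2, against 1215 to 1540 in controls and 1301 in the library labelled knockout 3. Of these markers 3 of 4 rose, Acta2, Cnn1 and Tagln, and all 3 calls were lost without knockout 1 or knockout 2. Without control 2 or control 3, 1 of the 4 rose, where 219 and 259 of all 13843 genes did. Epicardial markers summed to 395 and 366 in knockouts 1 and 2, against 223 to 301 in controls, and 268 in the library labelled knockout 3. Of these markers 1 of 4 rose, Wt1, a call lost without knockout 1 or knockout 2 (log2 0.80 and 0.69). Without control 3, 2 of the 4 rose, where 259 of all 13843 genes did. The littermate fit called 3 of the 4 higher (4.92% of all genes). Endothelial markers, of which 1 of 5 rose (Emcn, whose call held without control 1 and was lost with any of the other 4 libraries left out), summed to 1036 and 1036 in knockouts 1 and 2, against 883 to 913 in controls, and 835 in the library labelled knockout 3.

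Mesenchyme markers, of which 0 of 5 passed, summed to 2177 and 1272 in knockouts 1 and 2, against 1109 to 1688 in controls, and 907 in the library labelled knockout 3. Knockout 1, the higher of the pair for the chaperones and isomerases, was thus the highest library in this sum, and the library labelled knockout 3 was the lowest in both. Knockout 2 differed between the sums. It lay above all controls for the chaperones and isomerases and within the control range for the mesenchyme markers. Atrial markers, of which 1 of 3 measured rose (Myl7, lost without knockout 1) while Sln was not in the table, summed to 7519 and 6071 in knockouts 1 and 2, against 4690 to 5591 in controls, and 3973 in the library labelled knockout 3. Cardiomyocyte markers, with 0 of 6 called, summed to 33852 and 30780 in knockouts 1 and 2, against 29651 to 35596 in controls. Erythroid markers, with 0 of 5 called, summed to 4588 and 9780 in knockouts 1 and 2, against 4420 to 9757 in controls, and macrophage markers, with 0 of 4 called, to 18.0 and 18.3 in knockouts, against 14.4 to 32.2 in controls. No measured marker was at 0 in any library, but the smooth muscle marker Myh11, which did not pass, was as low as 0.458. The atria had been cut away, and the lowest value on the atrial list was still 544.6, for Myl7. Whether ventricular muscle or leftover atrial cells expressed the atrial list was not tested. The part of any of these cell types in the ER gene values was not tested either.

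**Figure D5:**
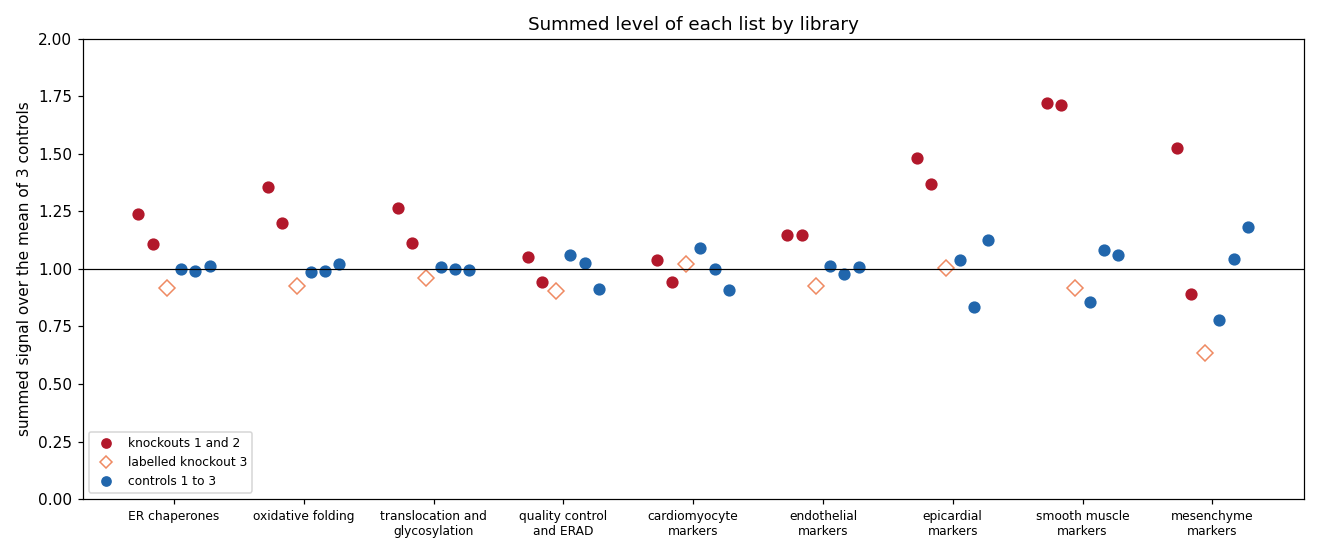
Summed signal of each list divided by the mean of the 3 controls (vertical axis, starting at 0), with knockouts 1 and 2 in red, the library labelled knockout 3 as an open diamond and controls 1 to 3 in blue. The ER chaperone sum is 1.24 and 1.11 in both knockouts and 0.918 for the library labelled knockout 3, and the smooth muscle, epicardial and endothelial sums are also above all controls in both knockouts.

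With all 6 libraries as labelled, 0 genes passed in limma (0.0% of all genes; 859 had an unadjusted p under 0.05, and the smallest adjusted p was 0.77), edgeR called 0, with 907 under 0.05 before adjustment, and DESeq2 called 11. Ero1l then had a log2 fold change of 0.73 ± 0.26 (SE; limma adjusted p = 0.77), and the median of the 10 members was 0.12. The library labelled knockout 3 was within 0.03 of the control mean for Ero1l on the log2 scale, and 0.08 to 0.21 below it for the 5 chaperones and isomerases.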

How the data were processed

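Polyadenylated RNA of 6 embryonic ventricles was compared by genotype. Per the submitters' processing notes, the authors used CASAVA 1.8.2, cutadapt 1.3 and RSEM 1.2.3 with GRCm38. The authors deposited a normalized signal per gene, which was whole reads divided by a factor per library: in each library all values came out as whole reads within 0.01 reads. The annotation and scaling are not given in the sources used here. Low genes had been removed upstream, since each listed gene reached a value of 1 in 3 or more libraries. Identifiers were matched to GENCODE on GRCm38, which named 13675 genes and left 168 unnamed.

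The test was limma 3.58.1 with trend (R 4.3.3) on log2(value + 1), a scale that understates changes of low genes, fitted over all 13843 genes, two-sided, with Benjamini-Hochberg adjusted p under 0.05. The design had allowed for raw counts or normalized values, and normalized values were found. edgeR 4.0.16 (quasi-likelihood) and DESeq2 1.42.0 on the recovered reads (edgeR called 570 genes against 588 in limma), other pseudocounts, filters and scalings, litter blocks and leaving out each library were alternatives. Scripts were tested on simulated data.

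The labels put control 1 and knockout 1 in litter 1 and control 2 and knockout 2 in litter 2, which pairs them. Their deviations from the group means correlated at 0.20 and 0.28 over genes, and those of the libraries numbered 3, from different litters, at 0.01. The knockout mean here included the library labelled knockout 3, so each knockout deviation also holds the difference between that library and knockouts 1 and 2. These correlations are therefore no clean check of the pairing in the 5 libraries compared. The labels name 4 litters and the design text 3. Each library is a single embryo, so p-values rest on the spread between embryos. limma pools the spread of each gene with that of other genes of similar level. Its p-values therefore do not measure a gene's own spread alone, least of all in the littermate fit with 1 residual degree of freedom. The fit of 5 libraries did not use the litter pairs.

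The members and lists were chosen with earlier results of these data known. Named genes were the members, Vhl, Nkx2-5, every listed gene past the threshold up to 6 per list by p (or the 2 with the smallest p where none passed), and the 5 nearest profiles to Ero1l and Hspa5. Reads shared between overlapping genes or close copies make such values uncertain.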

Additional observations from a re-analysis of the deposited data

How the results depend on the processing

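For knockouts 1 and 2 against controls, 588 genes passed. The count was 568 to 600 with other pseudocounts, a mean filter of 5, scaling to the library total or edgeR, 834 with DESeq2, 190 to 387 with 1 library left out (190 without knockout 1, 291 without knockout 2, 387, 279 and 342 without control 1, 2 and 3), and 0 with the library labelled knockout 3 kept. With the litter block, which takes litters 1 and 2 alone and so also leaves out control 3, it was 1125, of which 60.5% were higher, against 70.7% of the 588. Of the 10 members, 1 passed, 5 with DESeq2, 3 with the litter block, 0 with the library labelled knockout 3 kept, and 1 to 2 with 1 library left out. With all 6 libraries 0 genes passed, 11 with DESeq2 and 0 to 588 with 1 library left out (588 without the library labelled knockout 3). The litter block gives the same 1125 here, since it drops that library and control 3 and is the same fit of 4 libraries. The direction of the small fold changes was not fixed. Ddit3 was at 0.027 in the block fit and equally without control 3 and no block, and ranged from -0.13 to 0.060 with 1 of 5 libraries left out, and Herpud1 from -0.26 to 0.028. With 1 of 6 left out the ranges were -0.059 to 0.17 for Hspa5, -0.0068 to 0.26 for Calr, -0.0058 to 0.26 for Pdia6, -0.12 to 0.026 for Ddit3 and -0.13 to 0.024 for Herpud1. The causes were not tested. Beside 5 libraries, the block fit changed the calls of Hsp90b1 and Pdia4 and no other member's. A lone knockout is taken to vary like the controls. The number of embryos limits precision: member intervals were widest for Ddit3, from -0.39 to 0.32 in log2.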

Other observations

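Chaperones outside the ER were measured beside those in it. Of 20 cytosolic and mitochondrial chaperones and proteases, 1 rose and 1 fell in limma (3.01% and 1.24% of all genes). Their median log2 fold change was -0.04, with 8 above 0. Lonp1, a protease of the mitochondrial matrix and a known HIF target, had 212 and 224 in knockouts 1 and 2, against 135, 137 and 123 in controls 1 to 3, and 136 for the library labelled knockout 3 (log2 0.72 ± 0.07, SE; limma adjusted p = 0.00205). Hspd1, the mitochondrial chaperonin HSP60, had 662 and 626 in knockouts 1 and 2, against 855, 804 and 809 in controls 1 to 3, and 797 for the library labelled knockout 3 (log2 -0.35 ± 0.08, SE; limma adjusted p = 0.0491). The Lonp1 call held with each of the 5 libraries left out (adjusted p 0.00665 to 0.0202), and the Hspd1 call was lost whichever was left out (0.109 to 0.167).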
